A study of Rattus norvegicus with 2 samples.

Results

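The genes described here are developmental transcription factors with roles in the heart or in positional identity: Hox, T-box, Gata, Nkx, Hand, Mef2, Irx, Pitx, Fox, Sox, Meis and Pbx genes, with Isl1, Tcf21, Wt1, the Twist and Snai genes, serum response factor (Srf), its coactivators and the Tead genes. They are the genes whose symbol matched a pattern for these families, and 129 of the 16846 genes in the table matched. Poly(A) RNA was sequenced with strand information from cultures prepared as neonatal rat ventricular cardiomyocytes, taken from ventricles at postnatal day 0 by keeping the cells that had not attached to plastic after 2 h. There were 2 libraries, 1 from control cultures and 1, the knockdown library, from cultures transduced for 7 days with adeno-associated virus (AAV2/9) that carried hairpins that inhibit the let-7 and miR-99/100 families. The treatment label gives the control an empty AAV, whereas the treatment protocol speaks of mock transduction. Strain and number of animals are not given in the sources used here. With 1 library per group no difference below has a replicate check, and each one describes these libraries.

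Transcription factors of this kind work in combinations. In the heart, GATA, T-box, NK2, HAND and MEF2 proteins bind together at enhancers of contractile genes, and serum response factor does so with myocardin at CArG boxes. TEAD proteins carry the coactivators YAP and TAZ to DNA. Hox proteins give cells a position along the body axis and bind DNA with Pbx and Meis proteins, which belong to the TALE class of homeodomain factors. Tcf21, Wt1 and Tbx18 are known from the epicardium and the fibroblasts that descend from it. let-7 and miR-99/100 repress mRNAs that pair with the seed of the miRNA, and let-7 is known to rise as cells differentiate.

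The manipulated miRNAs are shown because the hairpins were directed at them. The mature sequences are from RefSeq, taken from the rat build GRCr8, and the seed, bases 2 to 8 from the 5′ end, is in capitals.
rno-let-7a-5p: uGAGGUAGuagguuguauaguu
rno-let-7c-5p: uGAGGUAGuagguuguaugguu
rno-miR-100-5p: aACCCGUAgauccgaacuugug
rno-miR-99b-5p: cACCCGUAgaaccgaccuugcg
let-7a and let-7c share the seed GAGGUAG and differ at 1 base, A19G with positions counted from the 5′ end of let-7a. miR-100 and miR-99b share the seed ACCCGUA and differ at 4 bases, A1C, U11A, A16C and U21C, counted from the 5′ end of miR-100. miR-99a belongs to the same family. Of the members, Hoxa9 and Twist1 stand on a short list of commonly cited targets of these miRNAs. Hoxa9 had 0 reads in both libraries. Twist1, a factor of mesenchyme, had 240 control reads and 202 knockdown reads, a log2 ratio of −0.13.

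Reads on genes numbered 16031780 for the control and 14815846 after knockdown. Levels are RPM, reads per 1000000 reads on genes, or RPKM, which is RPM per kilobase of exon and is used where levels of genes are ranked. Sums over a list are in RPM. Ratios are knockdown over control, of RPM, and log2 ratios are log2 of RPM with 0.1 added, which makes differences of low genes look smaller, and 95% intervals of ratios (exact, Clopper-Pearson) cover counting error only. A count of 0 allows up to 3 reads, or 0.187 RPM in the control and 0.202 in the knockdown library. Differences at low levels went well beyond counting error in both directions over the whole table. In all, 293 genes had 0 reads in the control and at least 10 in the knockdown library, and 164 had the reverse. Many ratios are therefore set beside a peer range, the central 95% of log2 ratios among the 500 genes nearest to the gene in mean RPM. Where only an interval is given, it does not show that a difference exceeds those of genes of like level.

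The label of the cultures was checked against markers. Of 10 cardiomyocyte markers listed, 9 were in the table, and they summed to 167 RPM in the control and 188 in the knockdown library, of which Tnnt2 gave 147 and 161. Myh6, Myl3, Ryr2 and Tnni3 had 0 reads in the control and 23, 19, 20 and 5 in the knockdown library, whereas Myl2 had 30 and 5, a log2 ratio of −2.17 inside the peer range of −4.45 to 4.66. The 9 fibroblast markers summed to 102399 and 103835 RPM and the 10 leukocyte markers to 6972 and 7684. Per kilobase the median cardiomyocyte marker had 1.05 and 1.29 RPKM, the median fibroblast marker 233 and 251 and the median leukocyte marker 367 and 304, so the highest of these lists were not those of the labelled cell type. In such bulk RNA fewer cells of a type and less RNA per cell cannot be told apart, and the part of cell composition in the results below was not tested.

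As a group the members were low, and their levels differed little between the libraries. They summed to 1281 RPM in the control and 1314 in the knockdown library. Of the 129, 55 had reads in both libraries, 55 had 0 reads in both, 15 had reads in the knockdown library only and 4 in the control only. Over all genes 31% had 0 reads in both, 4.29% had reads in the knockdown library only and 1.56% in the control only. A mean of at least 1 RPM was reached by 49 members, the floor for calling a difference. Of these 49, 6 (12.2%) passed 2-fold upward after knockdown, against 4.85% of the 10365 genes tested. Downward 2 (4.08%) passed it, against 3.56%, so that 8 of the 49 were 2-fold apart, against 8.41%. At 1.5-fold it was 10 upward (20.4%), against 10.8%, and 3 downward (6.12%), against 8.56%. A binomial test on reads, which compares the libraries and not the conditions, called 19 of the 49 higher, against 31.7%, and 14 lower, against 26.4%. The members' median log2 ratio was 0.06, beside 0.03 over all genes tested, and 53.1% of them were higher by any amount, beside 53.3%.

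Nearly all large ratios stood at low levels. From 1 to 5 RPM, 7 of 13 members were at least 2-fold apart, beside 41.9% of all genes at that level. From 5 to 20 RPM it was 1 of 12, beside 9.44%, and from 20 to 100 RPM 0 of 23, beside 0.669%. Only Sox4 reached 100 RPM, and it stood at 0.15. Of the 49 members, 48 lay inside their peer range. Over all genes tested 5.33% lay outside. Near the floor of 1 RPM the peer range reached about as far as any log2 ratio can with 0.1 RPM added. For members there, such as Tbx6, Sox11 and Sox10, lying inside it therefore says little.

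**Figure D1:**
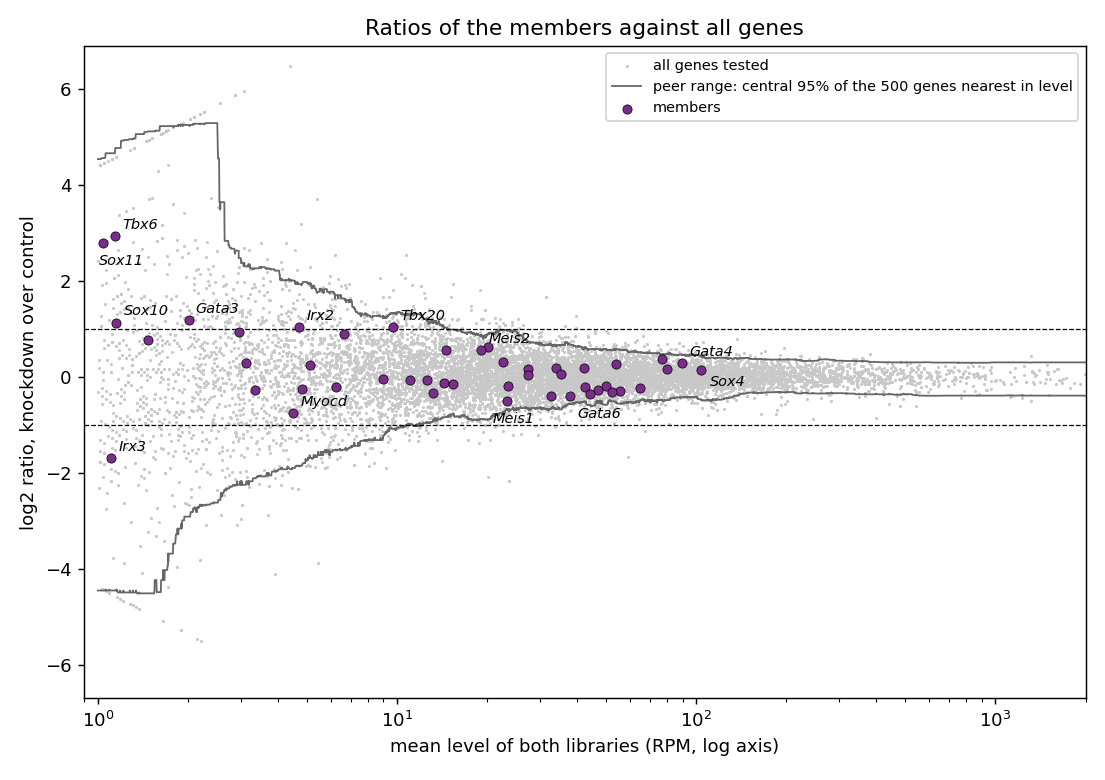
Log2 ratio (knockdown over control) against mean level in RPM on a log axis, 1 point per gene; purple points are 47 of the 49 members, grey points all 10365 genes tested, solid lines the peer range and dashed lines a 2-fold difference. The members narrow toward 0 with level as all genes do, and all 47 drawn lie between the solid lines.

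Per kilobase, the members with the highest mean of both libraries were Meis3, Snai1, Tcf21, Gata4, Mef2d, Gata6, Sox4 and Hand2. Meis3, a TALE cofactor, had 42.4 and 47.3 RPKM, control first, and ranked 1859 of all genes by mean RPKM. Snai1, a zinc finger repressor of epithelial genes, followed with 33.4 and 29.4 RPKM. Tcf21, a bHLH factor of fibroblasts and their epicardial precursors, had 26.1 and 29.7 RPKM and Gata4 24.4 and 29.9. Snai1 led these 3 in the control, whereas their knockdown values nearly coincided. The value of Hand2 rests on a transcript model of only 312 bases, so its place in this order is uncertain.

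**Figure D2:**
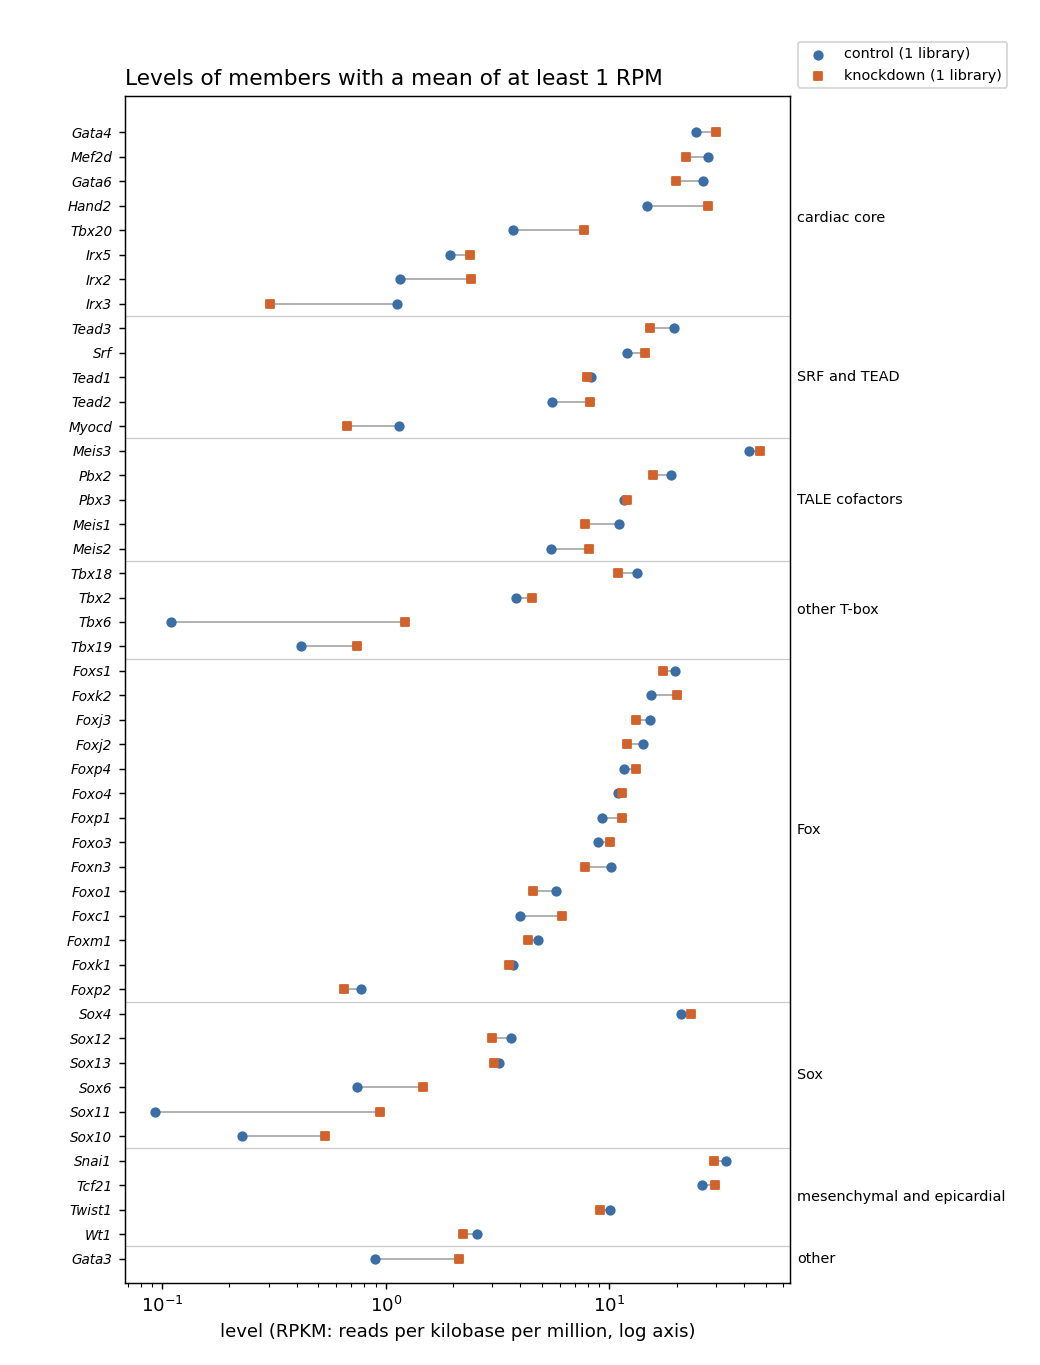
Level of 47 of the 49 members above the floor in RPKM on a log axis, grouped by role and ordered by mean level within a group; blue circles are the control library, orange squares the knockdown library. Within a role the spread between genes exceeds the gap between libraries for most members, and Tbx6, Sox11 and Irx3 show the widest gaps drawn.

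Among the core cardiac factors, GATA factors and Mef2d were present at moderate levels while several factors that define heart muscle cells had few or no reads. Of 18 in the table, 8 were above the floor, and their median log2 ratio was 0.29. Of these 8, 2 were at least 2-fold higher, against 4.85% of all genes tested, and 1 was lower, against 3.56%. The lower gene and 1 of the higher ones stood between 1 and 5 RPM. Nkx2-5, the NK2 factor of the cardiac lineage, had 0 reads in both libraries. Tbx5, the T-box factor of the left ventricle and atria, had 5 reads in each. Isl1, a marker of second heart field progenitors, had 7 and 4 reads, and Mef2b, of the MEF2 family, had 14 and 5. Hand1 and Gata5 had 0 reads in the control and 5 and 8 in the knockdown library, and Irx1, Irx4 and Irx6 had 0 in both. Of the 18, only Gata4, Gata6, Hand2, Tbx20 and Mef2d had a mean of at least 5 RPM.

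Gata4 and Gata6, zinc finger factors of heart and other mesoderm, went in opposite directions by small amounts. Gata4 (rn4 chromosome 15, 42472793 to 42519569) had 80.5 and 98.6 RPM, with knockdown at 1.23 times the control (1.14 to 1.32). Gata6 had 42.98 and 32.6 RPM, with knockdown at 0.759 times the control (0.674 to 0.853). Both log2 ratios, 0.29 and −0.40, lay inside the peer ranges of −0.43 to 0.47 and −0.56 to 0.67. Per kilobase the level of Gata4 over that of Gata6 was 0.933 (0.850 to 1.02) in the control and 1.51 (1.36 to 1.67) in the knockdown library. This quotient does not depend on how the libraries are scaled against each other. The pair, like those below, was chosen after its values were seen, so the quotient does not test a shift. Mef2a and Mef2c were not in the table, so of the MEF2 genes only Mef2b and Mef2d have values here. Mef2d had 57.9 and 46.5 RPM, a log2 ratio of −0.32.

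Tbx20 (chromosome 8, 24366065 to 24407270), a T-box factor of the myocardium and endocardium, was the only member above 5 RPM that passed 2-fold. It had 101 and 194 reads, or 6.30 and 13.1 RPM, with knockdown at 2.08 times the control (1.63 to 2.67). Its log2 ratio of 1.04 lay inside the peer range of −1.08 to 1.33. Hand2, a bHLH factor of the right ventricle and outflow tract, had 74 and 128 reads. The ratio was 1.87 (1.40 to 2.53), or 0.89 on the log2 scale with peers from −1.52 to 1.63.

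The Iroquois genes, homeodomain factors of chamber and conduction patterning, differed in direction. Irx2 (chromosome 17, 743534 to 748950) had 49 and 94 reads, with knockdown at 2.08 times the control (1.45 to 2.995). Irx3 (chromosome 19, 16345179 to 16347455) had 28 and 7 reads, with knockdown at 0.271 times the control (0.0998 to 0.634). Irx5 had 45 and 51. The log2 ratios of Irx2, 1.03, and Irx3, −1.69, lay inside the peer ranges of −1.85 to 1.93 and −4.45 to 4.66. Per kilobase Irx2 over Irx3 was 1.04 (0.641 to 1.72) in the control and 7.98 (3.73 to 20.4) in the knockdown library.

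Genes around the cardiac factors were given by list. Of 9 partners in the table, such as the GATA cofactor Zfpm2 and class IIa histone deacetylases, 8 were above the floor. Their median log2 ratio was 0.05, and 1 was at least 2-fold higher, against 4.85% of all genes tested. This was Hdac9, with 24 and 62 reads, whose log2 ratio of 1.42 lay inside the peer range of −2.25 to 2.67. Zfpm2 had 42.4 and 41.4 RPM. Of 14 target genes of cardiac factors, 8 were above the floor with a median of 0.15. Of these 8, 7 were higher by any amount, against 53.3% of all genes tested, from 0.02 (Slc8a1) to 0.89 (Myh7). At 2-fold 0 were higher, against 4.85%, and 1 was lower, against 3.56%, which was Myl2. Myh6, Myh7, Myl2, Ryr2, Tnni3 and Tnnt2 were also among the cardiomyocyte markers, so the 2 lists are not separate. The atrial markers Myl7 and Sln had 0 reads in both libraries, and Nppa, the third in the table, had 91 and 139.

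Srf, Myocd and the Tead genes in the table were above the floor, and none was 2-fold apart, against 8.41% of all genes tested. Their median log2 ratio over 5 genes was −0.06. Srf, a MADS-box factor of muscle and immediate early genes, had 787 and 873 reads, or 49.1 and 58.9 RPM, with knockdown at 1.20 times the control (1.09 to 1.32). Myocd, the myocardin gene, whose protein activates SRF targets in heart and smooth muscle, had 91 and 49 reads, or 5.68 and 3.31 RPM. Its log2 ratio, −0.76, was the lowest of the group and lay inside the peer range of −1.90 to 2.01. Srf and its coactivator thus differed in opposite directions, each within the range of genes of its level.

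The Srf promoter is shown because SRF binds CArG boxes and its own promoter carries 2 of them. The 250 bases before the RefSeq start are from GRCr8, chr9:21923826-21924075, plus strand, with the 2 matches in capitals.
Srf: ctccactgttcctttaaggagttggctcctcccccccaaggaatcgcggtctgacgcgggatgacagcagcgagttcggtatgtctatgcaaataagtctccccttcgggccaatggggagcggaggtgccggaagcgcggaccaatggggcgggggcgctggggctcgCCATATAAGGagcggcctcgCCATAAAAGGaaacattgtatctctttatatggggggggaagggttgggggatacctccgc
The matches CCATATAAGG and CCATAAAAGG end 71 and 51 bases before the start. Promoters were found for 83 of the 129 members, and 4 of these 83 held a CArG box, those of Srf, Foxe3, Nkx2-1 and Nkx2-2, beside 1.501% of 27457 rat promoters of the same length. Of these 4 genes only Srf had reads. GGAATG, the core of the TEAD motif, was searched on both strands and stood in 2 members' promoters, Tbx6 and Foxb2, beside 11.8% of all promoters. The motif AGATAA, known for Gata factors, stood in 5, beside 10.05% of all promoters. The motif TGACAG of the TALE class stood in 14, beside 15.6%. A match describes letters and does not show binding.

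All 11 SRF target genes in the table were above the floor. Their median was 0.01 and their range −0.24 (Cnn1) to 0.38 (Tpm2), where Tpm2 lay above its peer range of −0.35 to 0.33. At 1.5-fold 0 were higher, against 10.8% of all genes tested, and 0 lower, against 8.56%. All but Cnn1 had a mean above 20 RPM, where large ratios are rare. From 20 to 100 RPM 0.669% of all genes were 2-fold apart, and from 100 RPM upward 0%. The smooth muscle transgelin gene Tagln had 901 and 909 RPM. The 7 smooth muscle markers summed to 1278 and 1267 RPM, with 0 of 6 above the floor 2-fold apart, against 8.41% of all genes tested.

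The 3 TEAD genes in the table differed in direction. Tead3 had 798 and 573 reads, or 49.8 and 38.7 RPM, with knockdown at 0.777 times the control (0.697 to 0.866). Tead2 had 188 and 258 reads, or 11.7 and 17.4 RPM, with knockdown at 1.48 times the control (1.23 to 1.802). The log2 ratios of Tead3, −0.36, and Tead2, 0.57, lay inside the peer ranges of −0.60 to 0.58 and −0.84 to 1.03. Tead1 had 206 and 182 reads at −0.06, and its interval included no difference. Per kilobase Tead3 over Tead2 was 3.54 (3.02 to 4.17) in the control and 1.85 (1.60 to 2.15) in the knockdown library, so Tead3 led in both. Of 11 partners and targets of TEAD factors, 10 were above the floor, with a median of 0.09. Of these 10, 0 were 2-fold apart, against 8.41% of all genes tested. At least 1.5-fold higher were 2, against 10.8%. Those 2 were Yap1, the coactivator itself, with 22.1 and 33.3 RPM, and the cofactor gene Vgll4, with 14.3 and 23.5. Their log2 ratios, 0.59 and 0.71, lay inside the peer ranges of −0.67 to 0.72 and −0.89 to 0.87. The secreted matrix protein gene Ctgf, a commonly used YAP and TEAD target, had 5523 and 5026 RPM.

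Transcripts of the Hox genes in the table were near or below the limit of detection. Hox genes missing from the table, such as Hoxa5 and Hoxb6, have no value here. Of 25 Hox genes in the table, 0 reached the floor and 18 had 0 reads in both libraries. In the control the 25 genes together had 1 read, on Hoxa11, and in the knockdown library 40 reads on 6 genes. Hoxb8 had 10, Hoxa2 and Hoxd9 had 9 each, Hoxb9 had 7, Hoxb4 had 4 and Hoxb3 had 1. The HoxB genes held 22 of these 40 reads, and 4 of the 7 HoxB genes had reads in the knockdown library only, while the 5 HoxC genes had 0 in both. The highest Hox level, that of Hoxb8 in the knockdown library, was 0.697 RPKM.

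A surplus of genes read in the knockdown library only was general at these levels. Of the 1265 genes that had reads and stayed below the floor, 52.4% had reads in the knockdown library only and 19.2% in the control only. The 25 members of this kind gave 15 and 3, and the 7 Hox genes among them 6 and 1. The log2 ratios of all 7 lay inside their peer ranges. Each of the 7 had reads in only 1 library, so its ratio was already the most extreme its level allows. The peer range therefore could not set these genes apart.

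**Figure D3:**
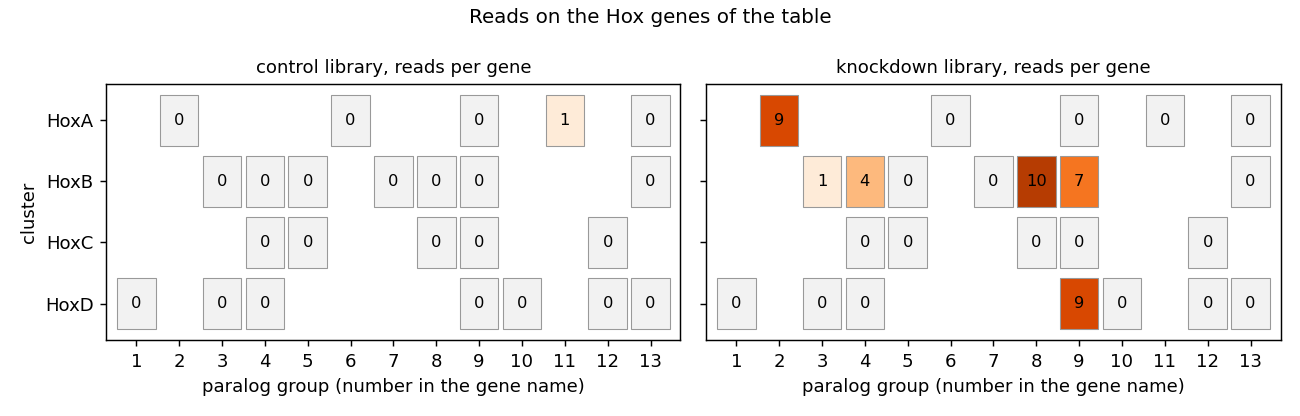
Reads on 24 of the 25 Hox genes of the table, by cluster (rows) and paralog group (columns), in the control library on the left and the knockdown library on the right; blank positions are not shown. The control holds 1 read in all, and the 40 reads of the knockdown library lie on 6 genes, 4 of them in HoxB.

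The Hox cofactors, by contrast, were among the most abundant members. Of 7 TALE genes, Pbx4 had 0 reads and the other 6 were above the floor, with a median log2 ratio of 0.10. At 1.5-fold 0 of the 6 were higher, against 10.8% of all genes tested, and 0 lower, against 8.56%. Meis1 (chromosome 14, 99693567 to 99832273) had 438 and 285 reads, or 27.3 and 19.2 RPM, with knockdown at 0.704 times the control (0.604 to 0.819). Meis2 (chromosome 3, 101915966 to 102117215) had 247 and 337 reads, or 15.4 and 22.7 RPM, with knockdown at 1.48 times the control (1.25 to 1.75). These were the lowest and the highest of the group, at −0.50 and 0.56, inside the peer ranges of −0.68 to 0.98 and −0.88 to 0.87. Per kilobase Meis1 over Meis2 was 2.01 (1.72 to 2.36) in the control and 0.960 (0.817 to 1.13) in the knockdown library, an interval that includes equal levels.

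The remaining TALE genes differed less. Meis3 had 75.4 and 84.1 RPM, with knockdown at 1.12 times the control (1.03 to 1.21). Pbx2 had 51.3 and 42.5 RPM, and Pbx3 26.9 and 27.7. The pairs of paralogs set against each other in the text were chosen after their values were seen. Their intervals cover counting error only, so the quotients do not test a shift between the libraries.

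Outside the core set, 10 T-box genes were in the table, and Tbx18 led them per kilobase with 13.3 and 10.9 RPKM. Tbx18, a factor of epicardium and mural cells, had 61.3 and 50.1 RPM, with knockdown at 0.819 times the control (0.743 to 0.901). Tbx2, which represses chamber genes, had 75 and 82 reads, and its close relative Tbx3 had 14 and 15. Tbx6 (chromosome 1, 185957068 to 185960977), a factor of presomitic mesoderm, had 3 and 31 reads, or 0.187 and 2.09 RPM, with knockdown at 11.2 times the control (3.49 to 57.2). Its log2 ratio of 2.93 was the highest of all 49 members, inside a peer range of −4.45 to 4.66. Tbx4, of hindlimb and lung mesenchyme, had 0 and 19 reads, at least 6.85-fold higher when the control is set to 3 reads, while the exact interval of its ratio began at 5.05. It lay below the floor. Tbx19 had 17 and 28 reads. Tbx1, Tbx15, Tbx21 and Tbx22 had 0 reads in both libraries.

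Mesenchymal and epicardial factors above the floor differed little between the libraries. Snai1 had 851 and 692 reads at −0.18, Tcf21 510 and 536 at 0.18, Wt1 108 and 86 at −0.21, and Twist1 is given above. Over these 4 genes the median was −0.16. At 1.5-fold 0 of the 4 were higher, against 10.8% of all genes tested, and 0 lower, against 8.56%. Snai3 and Twist2 stood below the floor with reads mostly in the knockdown library, 0 and 21 for Snai3 and 1 and 18 for Twist2. The ratio of Twist2 was 19.5 (3.08 to 812), an interval that shows how little 1 read fixes it.

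The epicardial markers other than these factors went lower in part. Of 6 in the table, 5 were above the floor, and 3 were at least 2-fold lower, Krt8, Krt19 and Upk1b, against 3.56% of genes tested. Krt8, with 46 and 15 reads, and Krt19, with 32 and 7, stood between 1 and 5 RPM. At that level 18.3% of all genes were at least 2-fold lower. Their log2 ratios, −1.42 and −1.87, lay inside the peer ranges of −2.99 to 5.25 and −4.49 to 4.94. Upk1b, a uroplakin of mesothelium, had 189 and 56 reads, and its log2 ratio of −1.62 lay below the peer range of −1.32 to 1.30. Aldh1a2, which makes retinoic acid, was the most abundant at 30.3 and 38.4 RPKM, and the list summed to 89.8 and 95.8 RPM. Tcf21, Wt1 and Tbx18 were not among the genes that differed 2-fold.

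Forkhead genes, a large family that shares a winged helix domain, gave the most members. Of 30 listed by symbol, 15 were above the floor, with a median log2 ratio of −0.16, 6 higher and 9 lower by any amount. Foxs1 led per kilobase with 19.7 and 17.4 RPKM, followed by Foxk2 with 15.4 and 20.02. Foxk2 had 1071 and 1290 reads, with knockdown at 1.30 times the control (1.20 to 1.41), inside its peer range at 0.38. Foxj2 and Foxj3 stood at −0.24 and −0.20. Among genes that act downstream of insulin and stress signals, Foxo1 had 14.7 and 11.7 RPM, Foxo3 25.7 and 29.0, and Foxo4 34.5 and 36.04. Among the FoxP repressors, Foxp1 had 20.2 and 25.04 RPM, Foxp4 39.3 and 44.7, and Foxp2 84 and 65 reads. Foxm1, an activator of mitotic genes, had 261 and 216 reads at −0.16, with an interval that included no difference. Foxn3 stood at −0.39 and Foxk1 at −0.05.

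Foxc1, of mesenchyme and the outflow tract, had the highest log2 ratio of the 15 Fox genes above the floor, with 255 and 363 reads, or 15.9 and 24.5 RPM. The ratio was 1.54 (1.31 to 1.82), or 0.62 on the log2 scale with peers from −0.88 to 0.89. Below the floor, Foxd1 had 10 and 3 reads, Foxq1 7 and 8, Foxn1 0 and 4, and Foxa1 and Foxa2 1 read each in a single library. The other 10 Fox genes, among them Foxa3, Foxh1 and Foxp3, had 0 reads in both.

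Sox genes, whose HMG box bends DNA, ranged from the most abundant member by reads to genes with none. Of 13 found, 6 were above the floor, with a median log2 ratio of 0.54, and 2 passed 2-fold upward, against 4.85% of all genes tested, and 0 downward, against 3.56%. Both stood between 1 and 5 RPM, where 41.9% of all genes were 2-fold apart and 23.6% were at least 2-fold higher. Sox4, of mesenchyme and the endocardial cushions, had 1575 and 1615 reads, or 98.2 and 109 RPM, with knockdown at 1.11 times the control (1.03 to 1.19). Sox13 and Sox12 stood at −0.07 and −0.27. The higher ratios came at low levels. Sox11, a SoxC relative of Sox4 known from neural and mesenchymal progenitors, had 3 and 28 reads (chromosome 6, 45141371 to 45143387), with knockdown at 10.1 times the control (3.12 to 51.9). Sox10, of neural crest and glia (chromosome 7, 117138694 to 117149939), had 11 and 24 reads, with knockdown at 2.36 times the control (1.11 to 5.34). Sox6 had 32 and 58 reads at 0.94. Sox11 at 2.79 and Sox10 at 1.13 lay inside peer ranges of −4.45 to 4.56 and −4.45 to 4.77.

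Markers of glia and neurons were read beside Sox10. The 6 genes summed to 181 and 179 RPM, mostly Ncam1, and 1 of 4 above the floor was at least 2-fold higher, against 4.85% of all genes tested. Their part in the Sox10 difference was not tested. Sox17 and Sox18, of endothelium, had 0 reads in both libraries and Sox7 had 0 and 2, while the 9 endothelial markers summed to 47.5 and 70.3 RPM. Above the floor stood 7 endothelial markers, and 2 of them passed 2-fold upward, against 4.85% of all genes tested, and 2 downward, against 3.56%. Of these, Pecam1, Plvap and Vwf stood between 1 and 5 RPM, where 41.9% of all genes were 2-fold apart, and Tek stood above 5 RPM. Flt1 had 24.7 and 44.9 RPM, and its log2 ratio of 0.86 lay above its peer range of −0.65 to 0.66.

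The remaining genes mostly had no reads. Of 15 Gata, Nkx and Pitx genes outside the core set, 13 had 0 reads in both libraries, including 10 Nkx genes. Gata3 (chromosome 17, 79991587 to 80011574), a factor of T cells and several epithelia, had 19 and 42 reads, or 1.19 and 2.83 RPM, with knockdown at 2.39 times the control (1.36 to 4.35), with its log2 ratio of 1.19 inside −2.91 to 5.25. Gata2, of blood progenitors and endothelium, had 0 and 1 read, and Gata1, of erythroid cells, had 0 in both. Just above the floor stood Sox11, with a mean of 1.04 RPM, and just below it Tbx3, with 0.943.

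**Figure D4:**
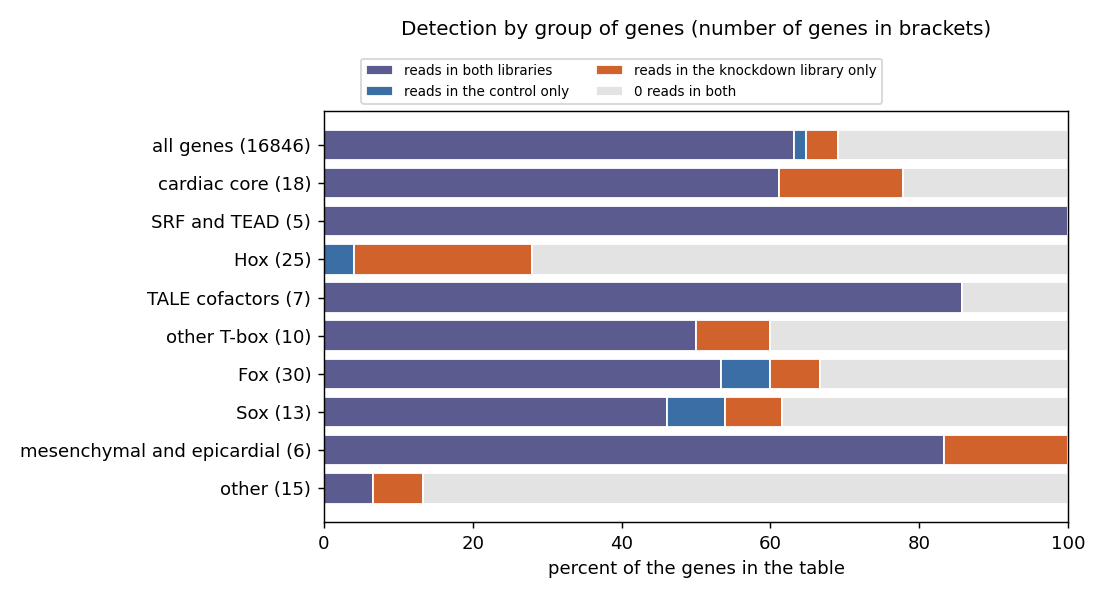
Share of the genes of each role in the table that had reads in both libraries, in 1 only, or in neither, as percent of the genes counted in brackets. All 5 SRF and TEAD genes were read in both libraries, whereas 18 of 25 Hox genes and 13 of the 15 other genes were read in neither.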

How the data were processed

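Per the file headers, the authors used HOMER to count antisense-strand reads over RefSeq exons (rn4), keeping 1 transcript for each gene. Per the submitters' processing notes CASAVA 1.8.2 and STAR 2.2.0c were also used, with no role stated. The deposited signal is those counts times 1 factor per library (0.962 and 1.04), and both columns have nearly the same total. Whole reads were recovered: 100% of values up to 400 reads were whole within 0.005. Of symbols on several rows (1), the row with the most signal was kept. Members matched a pattern of symbols. Members and lists were chosen with earlier results of these data known.

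Calls needed a mean of 1 RPM and a ratio of 2, with a pseudocount of 0.1 RPM. Named were all called members and, per role, the leading level and the extreme ratios; others are given by reads or counts. A few genes are not reported here by name or drawn, and stay in the counts. A binomial test of recovered reads (exact), added after the data were seen, called 3282 genes higher and 2736 lower (Benjamini-Hochberg, 0.05). It compares 2 libraries, not conditions. Analyses used Python 3.11.15, pandas 2.3.3, numpy 2.4.6 and SciPy 1.17.1. Recovery of reads, intervals and ratios were tested on simulated data. These held counting error only, so they do not test the calls at low levels. Alternatives were another pseudocount, floor, fold and scaling.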

Additional observations from a re-analysis of the deposited data

How the results depend on the processing

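The counts of members 2-fold apart depended on how low levels were treated. From 6 higher and 2 lower of 49 members, a pseudocount of 1 RPM left 2 higher (Sox11 and Tbx6) and 1 lower, a floor of 5 RPM left 1 higher (Tbx20) and 0 lower of 36, and no floor beyond 1 read gave 19 higher and 5 lower of 74. Over all genes these settings called 3.38%, 1.91% and 10.2% higher and 2.29%, 1.25% and 6.10% lower. A fold of 1.5 gave 10 higher and 3 lower. The binomial test on reads, chosen after seeing the data, called 19 higher and 14 lower of 49 members. Scaling by the median ratio or by the upper quartile kept the same 6 and 2 members and changed no direction among the 49. The median log2 ratio of all members ran from 0.00 with a floor of 5 RPM to 0.19 without a floor. From 1 to 5 RPM 41.9% of all genes were 2-fold apart, and the part of depth or library preparation in this was not tested. No paired analysis was possible because each group has 1 library.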
